A study of Bos taurus with 8 samples.

Results

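ID1, ID2, ID3, BMP2, BMP4, BMP7, FST, RSPO3, AXIN2 and LEF1 are 10 genes of the BMP and WNT signalling pathways. They were taken by name from the 18825 genes measured in single cells of bovine embryos, and all 10 were found. The study sampled wildtype embryos on days 6, 7, 8 and 9 after fertilization, and its title concerns the first lineages of the embryo and X chromosome dosage. The labels describe 8 libraries, each a pool of barcoded cells. The 6 wildtype libraries, numbered replicates 1 to 6, were used, and the other 2, from embryos injected with base editor RNA, were not analysed here.

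The authors' cell table sorts the 286 cells into 7 classes, where EB, MB and LB are the authors' own short forms. Day 6 held 58 Morula cells and day 7 held 39 EB cells. Day 8 held 37 trophectoderm cells (MB TE) and 51 inner cell mass cells (MB ICM). Day 9 held 25 primitive endoderm cells (LB PE), 31 trophectoderm cells (LB TE) and 45 epiblast cells (LB EPI). Primitive endoderm is mostly called hypoblast in cattle. Since the labels do not tie cells to embryos or to a sex, libraries served as replicates, and the p-values cover the spread of libraries alone, which may be technical. The way cells were put into classes is not given. The classes come from these same cells, and a gene that helped to define a class is no independent evidence of a difference.

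BMPs are secreted ligands of the TGF-beta family. They bind type I and type II receptors, which phosphorylate SMAD1, SMAD5 and SMAD9. These join SMAD4 and switch on targets such as ID1, ID2 and ID3, whose proteins block basic helix-loop-helix transcription factors. Follistatin, the product of FST, binds activins tightly and BMPs more weakly and keeps them from their receptors. In the canonical WNT pathway, ligand at the Frizzled and LRP receptors spares beta-catenin from a destruction complex that contains APC and AXIN proteins. Beta-catenin then joins LEF1 or another TCF factor at target genes, of which AXIN2 is the classic one. RSPO3 is a secreted R-spondin that amplifies WNT signals by keeping Frizzled receptors at the cell surface. In early embryos of mammals both pathways are known for their part in setting apart trophectoderm, epiblast and primitive endoderm, with differences between species.

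The cells held 48628984 reads together, and the median cell had 150770.5 reads and 7843 genes detected, with library medians of 84897 to 195159 reads. LB PE had the fewest reads, a median of 39210 per cell, and the other classes lay between 87902 and 198116. Levels are given as CPM, reads per 1000000 reads of the cell, averaged over the cells of 1 library and class where it held at least 3. This gave 2 averages for Morula (replicates 4 and 6), 1 for EB (replicate 4), 3 each for MB TE (replicates 1, 2, 3), MB ICM (1, 2, 5) and LB EPI (2, 3, 5), and 2 each for LB PE and LB TE (3, 5). Days 6 and 7 thus rest on replicates 4 and 6, and days 8 and 9 on the others, and the step between them cannot be told apart from a change of library. All 48 barcodes occurred in several libraries and no pair of cells held identical values.

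Summed marker levels fitted the labels in the main. The 8 trophectoderm markers summed to 34254 to 44289 CPM in LB TE and 30938 to 58449 in MB TE, against 1514 to 6617 in LB PE, LB EPI and MB ICM. The 7 epiblast markers summed to 756 to 847 CPM in LB PE, 227 to 345 in LB TE and 2493 to 2965 in LB EPI. The 9 hypoblast markers summed to 5774 to 6378 CPM in LB PE and 3958 to 4407 in MB ICM, against 402 to 909 in LB TE and LB EPI. SOX17, a defining marker of hypoblast, was at 0 in LB PE, as it was in Morula, EB, LB EPI and LB TE. Of the lists for other tissues, fibroblast markers summed to 49.4 to 711 CPM outside LB PE, sperm markers to at most 41.2 CPM, and blood markers to 456 to 1674 CPM in Morula against at most 150.1 CPM elsewhere.

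In Morula of replicate 6, 9 of the 45 cells stood apart. In 8 of them, with a median of 21789.5 reads, oocyte genes such as MOS and H1FOO summed to 1087 to 5358 CPM, and the ninth held 33961 CPM of cumulus and granulosa cell markers. MOS had a read in 6 of the 8 cells and H1FOO in 7, and those without MOS had 5138 and 8276 reads in all. The oocyte gene list and the threshold of 1000 CPM were chosen after the values were seen. No cell of another class reached 1000 CPM of either list, and Morula of replicate 4 held none such. Morula values that rest on these cells are given with and without them.

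**Figure D1:**
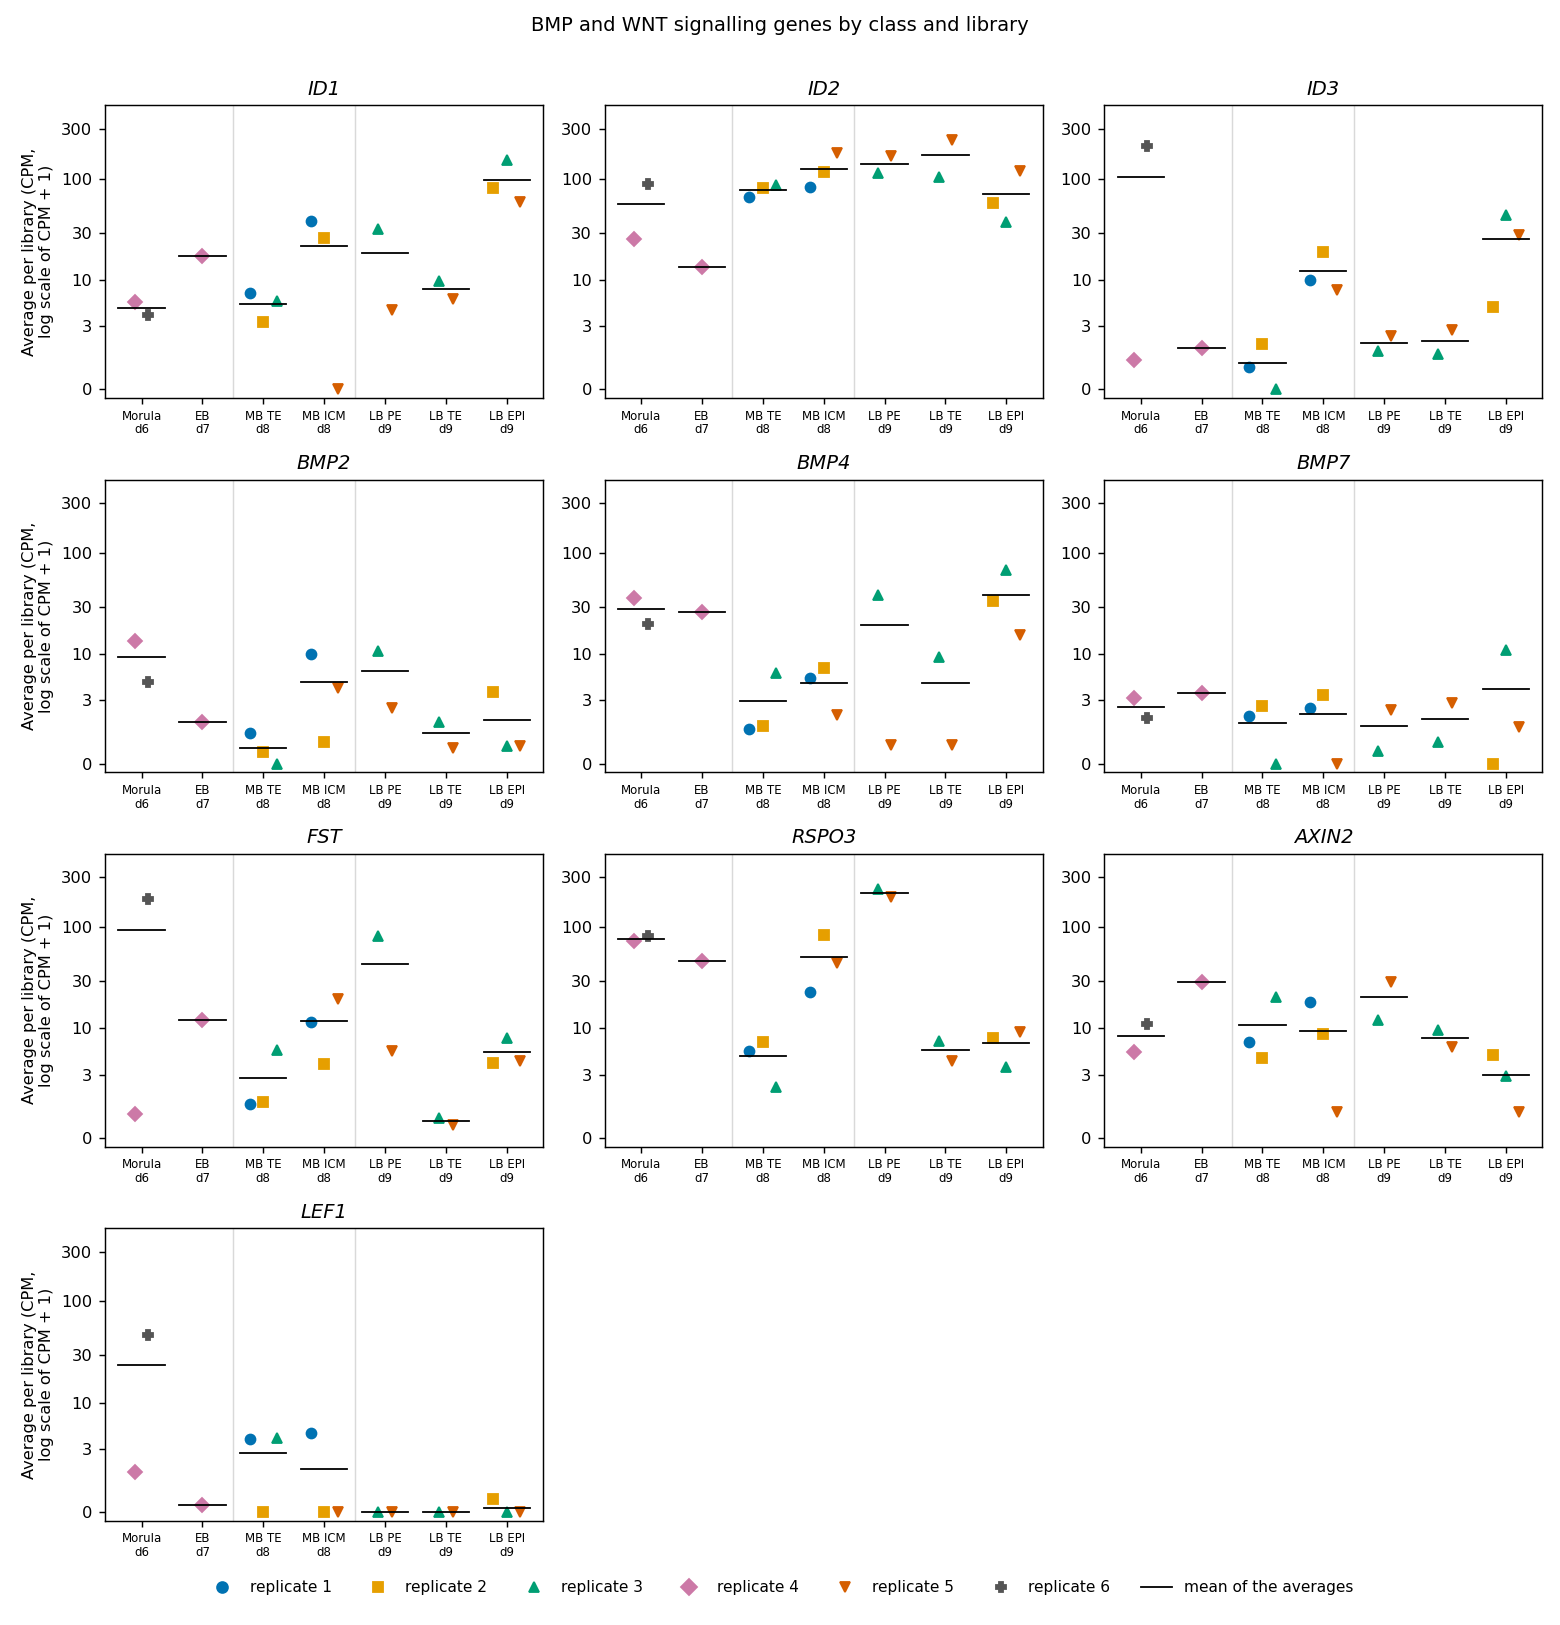
Average level of each of the 10 genes per class, in CPM on a log scale of CPM + 1, with 1 symbol per library and a line at the mean of the averages; d6 to d9 are days after fertilization. RSPO3 stood highest in LB PE (232 and 193 CPM), ID1 in LB EPI (59.6 to 149 CPM), and the Morula averages of ID3, FST and LEF1 differed widely between replicates 4 and 6.

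RSPO3, the WNT amplifier, was high in LB PE and low in the other day 9 classes. Its averages in LB PE were 232 CPM in replicate 3 and 193 CPM in replicate 5, against 7.43 and 4.36 CPM in LB TE and 8.01, 3.73 and 9.18 CPM in LB EPI. No LB PE average came near an LB TE or LB EPI average. The LB PE level was 213 ± 27.9 CPM (SD, n = 2), 36.1-fold above LB TE (5.89 ± 2.17 CPM, n = 2) and 30.5-fold above LB EPI (6.98 ± 2.87 CPM, n = 3). On the log2(CPM + 10) scale, which understates changes of low genes, RSPO3 rose by 3.81 (SE 0.40, adjusted p = 7.93e-06, limma) in LB PE against LB TE. Against LB EPI it rose by 3.78 (SE 0.37, adjusted p = 3.26e-06). Inside the libraries the difference was 3.80 (replicate 3) and 3.82 (replicate 5) against LB TE, and 4.14 and 3.40 against LB EPI. Both calls held under all 15 alternative settings tried, which changed the pseudocount, filter, averaging, scaling, test or depth, or left out cells or 1 library. Without replicate 3 or 5, LB PE and LB TE had 1 average each, which was assumed to vary like the others. Summed fibroblast markers were at 279 and 1127 CPM in LB PE, against 109 to 111 CPM in LB TE and 202 to 316 CPM in LB EPI. The lower LB PE sum thus lay inside the LB EPI range, and MB ICM reached 711 CPM. In LB PE 0 of the 8 markers were absent, and their part in the result was not tested. RSPO3 was the only one of the 10 genes called between LB PE and LB TE, where 5.85% of the 12540 genes tested were called.

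Most LB PE cells carried RSPO3. It had a read in 13 of 14 LB PE cells of replicate 3, with a median cell at 215 CPM, and in 6 of 9 cells of replicate 5, with a median cell at 188 CPM. The highest cell gave 19.4% and 31.2% of these sums, so neither average rested on 1 cell. After every cell was thinned to 20000 reads, and shallower cells were left out, 19 of 20 LB PE cells had a read (95%, exact 95% interval 75.1 to 99.9). This compares with 6 of 31 LB TE cells (19.4%, 7.45 to 37.5) and 2 of 43 LB EPI cells (4.65%, 0.568 to 15.8). Unthinned, the shares were 80.0% in LB PE, 45.2% in LB TE and 46.7% in LB EPI. The intervals cover counting error only.

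**Figure D2:**
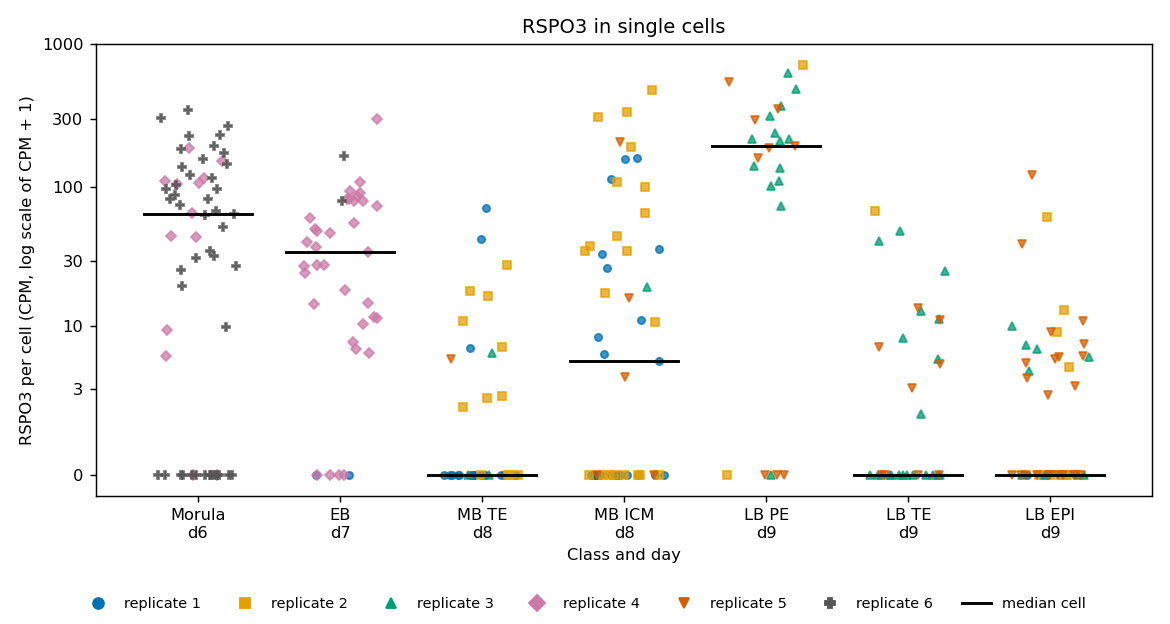
RSPO3 in every cell, in CPM on a log scale of CPM + 1, by class and day, with symbols for the 6 libraries and a line at the median cell. The highest LB PE cell is at 720.4 CPM, and the median MB TE, LB TE and LB EPI cell is at 0.

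On day 8, RSPO3 differed between the outer and inner cells. Its averages in MB TE were 5.79, 7.28 and 2.04 CPM in replicates 1, 2 and 3, against 23.4, 84.3 and 45.3 CPM in MB ICM of replicates 1, 2 and 5. Every MB TE average was below every MB ICM average. Its log2 level fell by 1.90 in MB TE against MB ICM (SE 0.33, adjusted p = 0.000646), with -1.08 inside replicate 1 and -2.45 inside replicate 2. This call held under all 15 alternatives, and no other of the 10 genes was called there, against 10.1% of all genes tested. MB ICM was mixed for this gene, with 17 of 47 thinned cells carrying a read (36.2%, 22.7 to 51.5). In replicate 5, 1 of its 5 cells gave 91.0% of the sum, and the other 4 averaged 5.003 CPM.

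From day 8 inner cells, RSPO3 went opposite ways in the 2 inner classes of day 9. LB EPI averaged 6.98 CPM against 51.0 ± 30.9 CPM in MB ICM (SD, n = 3), a fall by 1.75 (SE 0.34, adjusted p = 0.00311). LB PE averaged 213 CPM, a rise of 2.03 over MB ICM (SE 0.38, adjusted p = 0.0157). No average of either day 9 class overlapped those of MB ICM. In replicate 5, though, the MB ICM average rested mostly on 1 cell. Its other cells averaged below the LB EPI average of that library. The differences inside replicate 5 given next rest on that cell too. The fall in LB EPI was -2.39 and -1.53 inside replicates 2 and 5, and missed the threshold without replicate 2 (-1.41, adjusted p = 0.0732). The rise in LB PE was 1.88 inside replicate 5, the only library with both classes, and missed it without replicate 1 (1.69, 0.0887), 3 (1.84, 0.0687) or 5 (2.24, 0.185), with a pseudocount of 1 CPM (2.34, 0.0977) and with voom, limma's weighted fit to summed reads (2.49, 0.0578). The hypoblast marker sum moved with the fall, at 639 to 909 CPM in LB EPI against 3958 to 4407 CPM in MB ICM, and its part in the result was not tested. RSPO3 alone of the 10 was called between LB PE and MB ICM, where 0.702% of all genes tested were called.

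Earlier, RSPO3 averaged 73.4 and 81.8 CPM in Morula and 47.6 CPM in EB. By class mean the order was LB PE, Morula, MB ICM, EB, LB EPI, LB TE and MB TE. Of these neighbours, LB PE and Morula did not overlap, nor did EB and LB EPI, while the other neighbours overlapped. Without the 9 cells that stood apart, Morula of replicate 6 was at 92.6 CPM.

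The ID genes, all BMP targets, had different patterns. ID1 was highest in epiblast. Its averages were 9.64 and 6.24 CPM in LB TE (replicates 3 and 5), 32.6 and 4.72 CPM in LB PE, and 80.4, 149 and 59.6 CPM in LB EPI (replicates 2, 3 and 5). All LB TE and LB PE averages lay below the lowest LB EPI average. ID1 was 12.2-fold lower in LB TE (7.94 ± 2.41 CPM, SD, n = 2) than in LB EPI (96.4 ± 47.0 CPM, n = 3), and its log2 level fell by 2.45 (SE 0.48, adjusted p = 0.00129). It was 5.17-fold lower in LB PE (18.7 ± 19.7 CPM, n = 2) than in LB EPI, a fall by 1.96 (SE 0.48, adjusted p = 0.0187).

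Within libraries these differences were -3.02 and -2.10 for LB TE against LB EPI and -1.90 and -2.24 for LB PE against LB EPI. The call in LB TE missed the threshold without replicate 3 (-2.08, adjusted p = 0.0791). The call in LB PE was less firm, and missed it in 7 of 15 alternatives: without replicate 2, 3 or 5 (adjusted p = 0.0505, 0.0760 and 0.0658), without the filter on low values (0.0697), without the replicate block, the library term of the fit (0.0569), with a pseudocount of 1 CPM (0.146) and with voom (0.260). On day 8 ID1 was at 7.34, 3.40 and 5.86 CPM in MB TE and 39.0, 26.5 and 0 CPM in MB ICM, where 0 of the 5 cells of replicate 5 had a read. LB EPI exceeded MB ICM 4.42-fold, a rise of 1.94 (SE 0.44, adjusted p = 0.0103), with 1.31 inside replicate 2 and 2.80 inside replicate 5. This rise missed the threshold without replicate 3 (1.72, 0.0831) and with voom (2.26, 0.0604).

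ID1 did not pass the test between MB TE and MB ICM (-0.94, SE 0.43, adjusted p = 0.193). Without replicate 5, whose MB ICM average was the 0, it did (-1.49, adjusted p = 0.00904). After thinning, ID1 had a read in 28 of 43 LB EPI cells (65.1%, 49.1 to 79.0), and in at most 36.2% of the cells of each other class. Unthinned, 43 of 45 LB EPI cells had one (95.6%). By class mean LB EPI stood first, followed by MB ICM, LB PE, EB, LB TE, MB TE and Morula. LB EPI did not overlap MB ICM and EB did not overlap LB TE, while the other neighbours overlapped.

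The day 9 averages of ID2 lay the other way, without passing the test. Its averages were 112 and 165 CPM in LB PE and 104 and 234 CPM in LB TE, against 58.2, 37.6 and 119 CPM in LB EPI. LB EPI overlapped both through replicate 5, where 1 cell of 18566 reads held 1400 CPM and 49.2% of the sum, and the other 23 cells averaged 62.8 CPM. In LB TE against LB EPI the log2 difference was 1.13 (SE 0.41), with 1.26 and 0.93 inside the libraries, and missed the threshold at an adjusted p of 0.0661. It passed with cells of at least 20000 reads (1.41, adjusted p = 0.0121), with log2 values averaged over cells (1.43, 0.01002) and with voom (1.25, 0.00983). It also passed, at 0.0445 to 0.0490, without replicate 4, replicate 6 or the Morula cells that stood apart.

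LB PE against LB EPI gave 0.94 for ID2 (adjusted p = 0.205), and 1.31 (0.0391) with cells of at least 20000 reads. On day 8 the sign of the trophectoderm difference was opposite. ID2 averaged 66.4, 81.6 and 86.1 CPM in MB TE against 82.3, 116 and 176 CPM in MB ICM, -0.42 on the log2 scale (adjusted p = 0.552). Inside replicates 1 and 2 the difference was -0.27 and -0.46. The change between the days did not pass the test (1.56, SE 0.55, adjusted p = 0.2795). ID2 was detected in every average, at 26.1 and 88.7 CPM in Morula and 13.7 CPM in EB. In Morula of replicate 6, the 8 cells rich in oocyte genes gave 40.8% of the ID2 sum. Without the Morula cells that stood apart, ID2 was at 63.2 CPM there. After thinning, 62.8% to 75.0% of the cells of each day 8 and day 9 class had a read, against 32.0% in Morula and 16.7% in EB.

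ID3, like ID1, stood higher in LB EPI than in the other day 9 classes, but did not pass the test. It averaged 1.31 and 2.21 CPM in LB PE and 1.16 and 2.64 CPM in LB TE, against 5.05, 44.7 and 28.1 CPM in LB EPI. Every LB EPI average exceeded every LB PE and LB TE average. The differences, -1.46 for LB PE and -1.45 for LB TE (SE 0.79 each), missed the threshold (adjusted p = 0.345 and 0.273). With the Morula cells that stood apart left out, the same differences had an SE of 0.42 and adjusted p of 0.0404 and 0.0193, since all classes share 1 estimate of the spread. They also passed without replicate 6 (adjusted p = 0.0386 for LB PE and 0.0174 for LB TE) and with log2 values averaged over cells (0.0380 and 0.0192), and that of LB TE without replicate 4 (0.0259). Leaving out replicate 6 removes those Morula cells too, and leaving out replicate 4 or 6 leaves Morula with 1 average. These passes are thus not separate from that without the cells. ID3 averaged 0.621, 1.71 and 0 CPM in MB TE, against 10.05, 19.2 and 7.82 CPM in MB ICM, without overlap, and this difference also missed the threshold (-1.04, adjusted p = 0.428).

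In Morula, ID3 was at 0.903 CPM in replicate 4 and 204 CPM in replicate 6. The 8 cells rich in oocyte genes gave 94.7% of the sum in replicate 6, with a mean of 1086 CPM and a read in 6 of 8. Without the 9 cells that stood apart, ID3 was at 13.2 CPM there. Of the other 36 cells, 22 still had an ID3 read, 15 an H1FOO read and 12 a MOS read. In replicate 4 these were 1, 1 and 2 of 13 cells. ID3 averaged 1.45 CPM in EB.

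**Figure D3:**
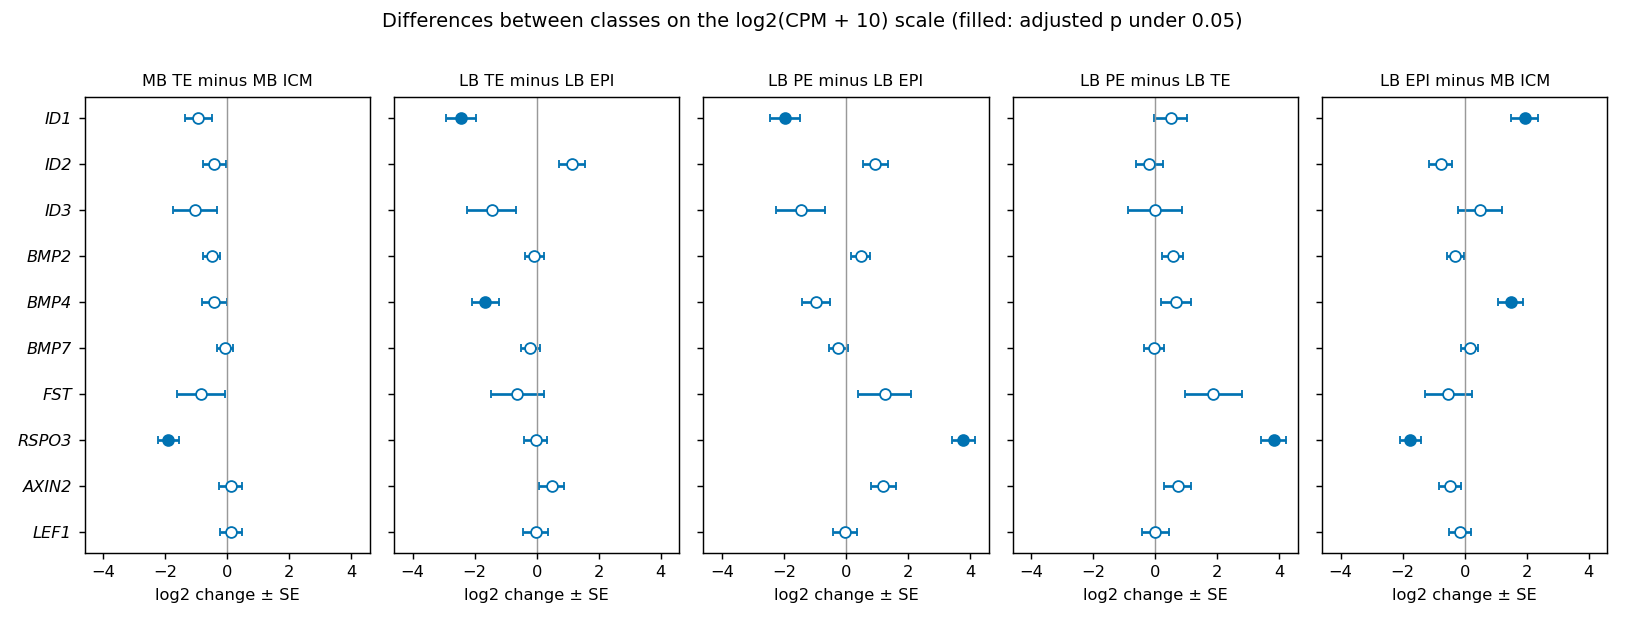
Difference of each of the 10 genes in 5 comparisons of classes, as log2 change on the log2(CPM + 10) scale, with bars of 1 SE and filled points where the adjusted p was under 0.05. RSPO3 lies near 3.8 for LB PE against both other day 9 classes, and ID1 and BMP4 are filled where LB EPI is compared with LB TE and with MB ICM.

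Among the BMP ligands, BMP4 was the only one called. BMP4, a ligand that the mouse embryo needs to form mesoderm and germ cells, averaged 9.29 and 0.5003 CPM in LB TE and 39.1 and 0.498 CPM in LB PE, against 34.1, 68.4 and 15.8 CPM in LB EPI. LB TE lay below LB EPI in every library, while LB PE overlapped it. In LB TE, BMP4 fell by 1.65 against LB EPI (SE 0.45, adjusted p = 0.0142), with -2.02 and -1.30 inside the libraries. The call missed the threshold without replicate 2 (-1.66, 0.0519), without the filter (-1.65, 0.0523) and without the replicate block (-1.65, 0.0537). ID1 and BMP4 were the 2 of 10 called lower in LB TE than in LB EPI, where 15.2% of all genes tested were called. ID1 and RSPO3 were the 2 of 10 called between LB PE and LB EPI, against 5.39% of all genes.

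The higher LB PE average of BMP4 rested on 1 cell. That cell had 2 reads of 5703, which gave 350.7 CPM and 64.0% of the sum in replicate 3, and the other 13 cells averaged 15.1 CPM. The difference of LB PE from LB EPI was -0.98 (adjusted p = 0.237), and it passed with cells of at least 20000 reads (-1.44, 0.0169) and with log2 values averaged over cells (-1.13, 0.0321). Against MB ICM (5.496, 7.15 and 1.92 CPM), BMP4 rose in LB EPI by 1.49 (SE 0.41, adjusted p = 0.0333), without overlap and with 1.36 and 1.11 inside replicates 2 and 5. This call missed the threshold in 7 of 15 alternatives, at adjusted p between 0.0564 and 0.168: without replicate 1, 2 or 3, without the filter, without the replicate block, with a pseudocount of 1 CPM and with voom. With it, 3 of the 10 genes were called between LB EPI and MB ICM, against 5.1% of all genes, namely ID1 and BMP4 higher and RSPO3 lower.

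BMP4 followed the days unevenly. It was at 36.6 and 20.1 CPM in Morula and 26.6 CPM in EB, and at 1.15, 1.29 and 6.33 CPM in MB TE. Both day 6 averages and the EB average were above every day 8 average, a step at which the libraries change as well. After thinning, 30% of Morula cells, 36.1% of EB cells and 37.2% of LB EPI cells had a BMP4 read, against 5.41% to 20% in the other classes.

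BMP2 and BMP7 were low in nearly all averages. BMP2, a ligand close to BMP4 in sequence, reached 10 CPM in 2 of 16 averages, at 13.7 CPM in Morula of replicate 4 and 10.8 CPM in LB PE of replicate 3, where the other library of the class had 5.05 and 2.35 CPM. BMP7 reached it once, at 11.1 CPM in LB EPI of replicate 3, against 0 and 1.23 CPM in the other LB EPI libraries and at most 3.69 CPM in all other averages. Neither was called in any comparison, and no difference was detectable at this depth.

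FST, the follistatin gene, was uneven between libraries. It averaged 82.3 and 5.76 CPM in LB PE, against 0.569 and 0.338 CPM in LB TE and 4.17, 7.90 and 4.45 CPM in LB EPI. Both LB PE averages exceeded both LB TE averages, but only 1 exceeded all LB EPI averages. The difference of LB PE from LB TE was 1.87 (SE 0.92, adjusted p = 0.285), with 3.13 in replicate 3 and 0.61 in replicate 5. It passed without replicate 6 (adjusted p = 0.0382), without the Morula cells that stood apart (0.0497) and with log2 values averaged over cells (1.07, 0.0427). After thinning, 8 of 20 LB PE cells (40.0%, 19.1 to 63.9) and 0 of 31 LB TE cells had an FST read.

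On day 8 FST was at 1.13, 1.21 and 5.86 CPM in MB TE and 11.6, 4.05 and 20.1 CPM in MB ICM, which overlapped. In Morula it was at 0.711 CPM in replicate 4 and 188 CPM in replicate 6. There 1 cell held 563 FST reads of 77442, 7270 CPM, which was 86.1% of the sum. That cell also held INHBA, the inhibin beta A subunit, at 32825 CPM, CYP19A1, the aromatase, at 723.1 CPM, FOXL2 at 284.1 CPM and AMH at 103.3 CPM. Without the 9 cells FST was at 17.4 CPM. Of the other 36 cells, 20 still had an FST read, and 33 had an INHBA read, with a mean of 80.3 CPM. In Morula of replicate 4, FST had a read in 1 of 13 cells, and INHBA averaged 1.45 CPM.

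AXIN2, the general WNT target, was low throughout and highest in EB. Its level there was 29.5 CPM, with a read in 28 of 35 cells and a median cell at 22.9 CPM, against 5.59 and 11.03 CPM in Morula. The difference of 1.16 (SE 0.55) had an adjusted p of 0.984, and with 1 EB average it rests on the spread of the other classes. Inside replicate 4 it was 1.34. In Morula of replicate 6, the 8 cells rich in oocyte genes gave 57.1% of the AXIN2 sum. Without the Morula cells that stood apart, AXIN2 was at 5.92 CPM there. After thinning, 16 of 36 EB cells had a read (44.4%, 27.9 to 61.9), and 6.45% to 21.6% in the other classes. The lowest share was that of LB TE, at 6.45%, beside 6.98% in LB EPI. On day 9 AXIN2 averaged 12.2 and 29.3 CPM in LB PE and 9.66 and 6.29 CPM in LB TE, against 5.20, 2.89 and 0.760 CPM in LB EPI.

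LB EPI had the lowest class mean of AXIN2, overlapping MB TE and MB ICM but not LB TE or LB PE. Neither difference passed the test, at 1.21 for LB PE (SE 0.40, adjusted p = 0.0888) and 0.49 for LB TE (SE 0.40, adjusted p = 0.505), with 0.61 and 0.60 inside the libraries. With cells of at least 20000 reads LB PE passed (1.41, adjusted p = 0.0324). In LB PE of replicate 5, 1 cell gave 82.1% of the sum and the other 8 averaged 5.90 CPM. On day 8 the AXIN2 averages overlapped, at 7.25, 4.79 and 20.9 CPM in MB TE and 18.8, 8.84 and 0.769 CPM in MB ICM.

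LEF1, the beta-catenin partner, was nearly absent from these cells. It reached 10 CPM in 1 of 16 averages, 47.0 CPM in Morula of replicate 6. The 8 cells rich in oocyte genes held 98.6% of that sum, and without the 9 cells LEF1 was at 0.812 CPM. On day 8 it was at 4.01, 0 and 4.07 CPM in MB TE, and in MB ICM at 4.73 CPM from 1 cell in replicate 1 and 0 in replicates 2 and 5. On day 9 LEF1 had a read in 0 of 25 LB PE cells and 0 of 31 LB TE cells, and in 2 of 45 LB EPI cells. Taking 3 counts as the limit that a count of 0 allows, up to 12% of LB PE cells and 9.68% of LB TE cells could hold a read, which does not limit how many expressed the gene at this depth. The fitted changes of LEF1 between the day 9 classes rest on levels at or near 0, and no size is given for them.

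**Figure D4:**
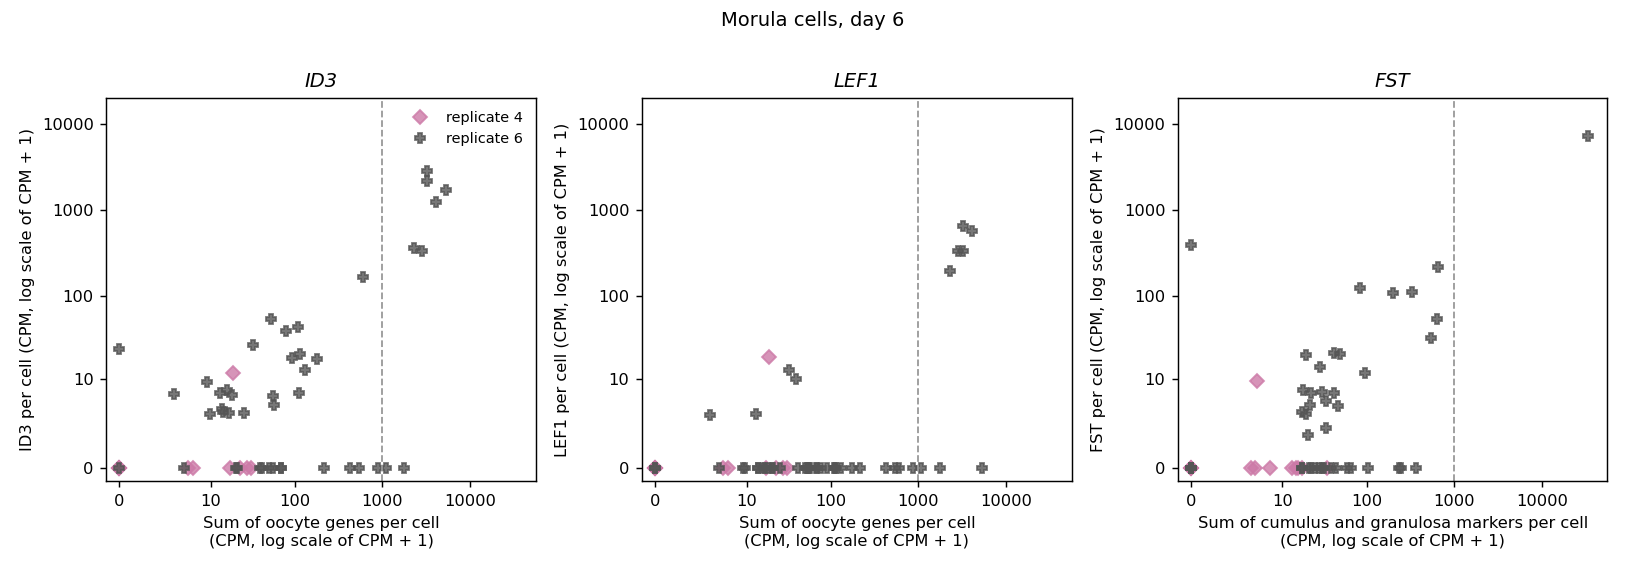
ID3 and LEF1 against the sum of oocyte genes, and FST against the sum of cumulus and granulosa markers, in each Morula cell, all in CPM on a log scale of CPM + 1, with a dashed line at 1000 CPM. The highest ID3 and LEF1 values lie right of the line, and a single cell with 7270 CPM of FST lies far right of it, all in replicate 6.

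Between EB and Morula and between LB TE and MB TE, limma called 0 of the 10 genes. At an unadjusted p under 0.05 there were 2 of 10 (ID2 lower and AXIN2 higher in EB) and 0 of 10. Of all 12540 genes tested, 627 and 701 were under it in these 2 comparisons. Voom called 0 of the 10 genes in both as well. Over all genes tested, 0.0797% were called between EB and Morula and 0.191% between LB TE and MB TE. Of the 80 pairs of a gene and a comparison, 10 were called, all of ID1, BMP4 and RSPO3. Thus 3 of the 10 genes were called in at least 1 comparison, against 23% of all genes tested. The median log2 change of the 10 genes was -0.14 for LB TE against LB EPI, 0.22 for LB PE against LB EPI, 0.52 for LB PE against LB TE, -0.23 for LB EPI against MB ICM and -0.47 for MB TE against MB ICM. The median of all genes tested lay between -0.04 and 0.02 in these comparisons. Several comparisons share the same LB EPI, LB TE or MB ICM averages. The change of the trophectoderm contrast between the days was 1.87 for RSPO3 (adjusted p = 0.119), -1.51 for ID1 (0.433) and -1.23 for BMP4 (0.527), and did not pass the test.

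The rest of the 2 pathways was described through 13 lists of ligands, receptors, transducers, inhibitors and targets, with 111 other genes, of which 95 were in the table and 60 were tested. Of the 60, 19 were called in at least 1 comparison, 31.7%, against 23% of all genes tested. They were called 4 times higher and 10 times lower in LB TE against LB EPI, where 15.2% of all genes tested were called, and 2 times higher and 4 times lower in LB PE against LB EPI, where 5.39% were. In LB EPI against MB ICM 8 were called higher and 0 lower, against 5.1% of all genes, and in MB TE against MB ICM 1 higher and 3 lower, against 10.1%. The medians of the 60 were -0.09, -0.07, 0.20 and 0.05. No list is singled out by these counts.

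The TCF factors TCF7L1 and TCF7L2, like ID1, had their highest class mean in LB EPI. TCF7L1, which acts largely as a repressor of WNT targets in mouse pluripotent cells, was at 40.1 and 39.8 CPM in LB TE and 96.7 and 55.6 CPM in LB PE, against 221, 241 and 189 CPM in LB EPI. It fell in LB TE by 2.24 (SE 0.36, adjusted p = 0.000172) and in LB PE by 1.49 (SE 0.36, 0.0162), and rose in LB EPI against MB ICM by 1.62 (SE 0.32, 0.00407). TCF7L2 was at 29.7 and 28.6 CPM in LB TE and 126 and 35.2 CPM in LB PE, against 138, 393 and 191 CPM in LB EPI. It fell by 2.58 in LB TE (SE 0.41, adjusted p = 0.000143) and fell by 1.58 in LB PE (SE 0.41, 0.0248), and it rose by 1.36 in LB EPI against MB ICM (SE 0.37, 0.0318). In both genes the fall in LB TE held under all 15 alternatives. The fall of TCF7L1 in LB PE missed the threshold without replicate 2 (0.0623), 3 (0.0549) or 5 (0.0985), and its rise in LB EPI without replicate 2 (0.114). For TCF7L2, the fall in LB PE missed it without replicate 5 (-0.95, 0.358), without the filter (0.0766) or the replicate block (0.0619) and with voom (0.0981). Its rise in LB EPI missed it without replicate 1, 2, 3 or 5 (0.0563 to 0.118) and without the filter (0.0871).

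Some BMP transducers and receptors were also among the genes called in LB EPI. Against MB ICM, 2 of the 4 transducers and 1 of the 5 receptors tested were called higher, where 5.1% of all genes were called. SMAD1 and SMAD5 were tested and not called in any comparison. SMAD9, a BMP transducer, was at 0.147 and 2.16 CPM in LB TE and 0 in both LB PE libraries, against 27.0, 19.4 and 10.9 CPM in LB EPI. It fell by 1.33 in LB TE (SE 0.26, adjusted p = 0.00139) and was called lower in LB PE (adjusted p = 0.00195), and rose by 1.43 in LB EPI against MB ICM (SE 0.24, 0.000974). SMAD9 reached the 10 CPM that the filter asks for only in the 3 LB EPI averages, so it was tested through the class in which it was high. The fitted size in LB PE, -1.48, depends on the pseudocount and is no bound. The calls of SMAD9 missed the threshold without replicate 3 in LB TE (0.0941) and LB PE (0.0536), and without replicate 2 in LB EPI against MB ICM (0.0503). BMPR1A, a type I BMP receptor, was at 36.9, 67.3 and 31.7 CPM in LB EPI against 19.2, 10.7 and 6.05 CPM in MB ICM, a rise of 1.30 (SE 0.31, adjusted p = 0.0157) that missed it without replicate 2, 3 or 5 (0.0901 to 0.0920). SMAD4, the common partner of the transducers, fell in LB PE by 1.33 against LB EPI (58.6 and 27.2 against 111, 141 and 95.3 CPM, adjusted p = 0.0197), and missed it without replicate 2 (0.0649) or 5 (0.172), without the replicate block (0.0622) and with voom (0.310).

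LGR4, a receptor for R-spondins, and SFRP1 were also higher in LB EPI than in MB ICM. LGR4 was at 35.3, 97.0 and 95.9 CPM in LB EPI against 8.54, 3.93 and 10.1 CPM in MB ICM, a rise of 2.08 (SE 0.43, adjusted p = 0.00505) that held under all 15 alternatives. SFRP1, a secreted Frizzled-related WNT inhibitor, was at 2.61 and 4.73 CPM in LB TE and 3.04 ± 1.63 CPM in MB ICM (SD, n = 3), against 12.1, 32.8 and 27.7 CPM in LB EPI. It fell by 1.36 in LB TE (adjusted p = 0.00957; 0.184 without replicate 3 and 0.0707 without replicate 5) and rose by 1.34 in LB EPI against MB ICM (0.0133; 0.0740 and 0.139 without the same libraries and 0.116 with voom). FZD3, a Frizzled receptor, fell by 1.43 in LB TE against LB EPI (22.2 and 20.4 against 73.9, 115 and 52.7 CPM, adjusted p = 0.00889; 0.121 without replicate 3).

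Higher in LB TE than in LB EPI were TNFRSF19, CTNNB1, WNT4 and WLS. TNFRSF19, listed as a WNT target, was at 15.5 and 7.81 CPM, against 0 in LB PE and 0, 1.21 and 1.22 CPM in LB EPI. It reached 10 CPM in 1 of 16 averages, LB TE of replicate 3, so it was tested only through the class in which it was high, and without replicate 3 it was not tested. Its rise in LB TE against LB EPI was 0.97 (SE 0.23, adjusted p = 0.00597), and it passed in the other 14 alternatives, among them without the filter (0.000493). In LB PE it was called lower than in LB TE (adjusted p = 0.0107; 0.0961 without replicate 5 and 0.0508 with voom). The rises of CTNNB1, WNT4 and WLS in LB TE were added to the named ones after their values were seen. CTNNB1, which encodes beta-catenin, was at 182 and 195 CPM in LB TE against 111, 48.3 and 107 CPM in LB EPI, a rise of 1.12 (SE 0.32, adjusted p = 0.01997) that missed the threshold without replicate 3 (0.162) or 5 (0.0521), without the filter (0.0505) and without the replicate block (0.0562). WLS, which carries WNT ligands to the cell surface, was at 78.8 and 85.1 CPM in LB TE against 6.09, 14.9 and 5.55 CPM in LB EPI, a rise of 2.302 (SE 0.74, adjusted p = 0.0479; 0.119 without replicate 2 and 0.0663 without the filter). WNT4, a WNT ligand, was at 22.1 and 1.62 CPM in LB TE against 0, 0 and 0.519 CPM in LB EPI (adjusted p = 0.0418). It too reached 10 CPM only in LB TE of replicate 3, was not tested without that library, and missed the threshold in 6 of the other 14 alternatives, among them without replicate 1 (0.0679), 2 (0.132) or 6 (0.0501).

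In LB PE, PORCN was called higher than in LB TE, and CTNNB1 and APC were called higher than in LB EPI. PORCN, the acyltransferase that WNT ligands need for secretion, was at 51.6 and 32.4 CPM in LB PE against 7.78 and 8.40 CPM in LB TE, a rise of 1.498 (adjusted p = 0.0202; 0.179 without replicate 3 and 0.0949 without replicate 5). CTNNB1 rose by 1.202 in LB PE (135 and 292 CPM) against LB EPI (111, 48.3 and 107 CPM; adjusted p = 0.0319). APC, a scaffold of the destruction complex, rose by 1.28 in LB PE (133 and 139 CPM) against LB EPI (41.7, 39.1 and 67.9 CPM; adjusted p = 0.0366). In LB PE, CTNNB1 missed the threshold in 9 of 15 alternatives, among them without replicate 1 (0.0507), 2 (0.0503) or 5 (0.248), and APC in 7, among them without replicate 2 (0.0698), 3 (0.1997) or 5 (0.116). Neither passed without the replicate block (0.0881 for CTNNB1 and 0.0623 for APC).

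On day 8 the inhibitory SMADs went opposite ways. SMAD7 was at 77.4, 30.3 and 93.3 CPM in MB TE against 8.59, 7.49 and 6.16 CPM in MB ICM, a rise of 1.99 (SE 0.33, adjusted p = 0.000372) that held under all 15 alternatives. SMAD6 was at 2.26, 0.490 and 0 CPM in MB TE against 15.9, 4.53 and 20.2 CPM in MB ICM, a fall by 1.06 (SE 0.32, adjusted p = 0.0365). ACVR2B, a type II receptor, was at 112, 50.3 and 60.5 CPM in MB TE against 184, 247 and 107 CPM in MB ICM, a fall by 1.32 (SE 0.38, adjusted p = 0.0305). TCF7L2 fell by 1.26 there (29.5, 31.7 and 23.7 against 69.5, 79.8 and 77.0 CPM, adjusted p = 0.0305). ACVR2B missed the threshold in 6 of 15 alternatives, among them without replicate 2 (0.333) or 3 (0.0884). SMAD6 missed it in 7, among them without replicate 1 (0.147), 2 (0.0543), 3 (0.114) or 5 (0.115), and TCF7L2 in 8, among them without replicate 1 (0.0877), 2 (0.108) or 5 (0.0614). Without the replicate block the adjusted p was 0.118 for ACVR2B, 0.0610 for SMAD6 and 0.0794 for TCF7L2.

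**Figure D5:**
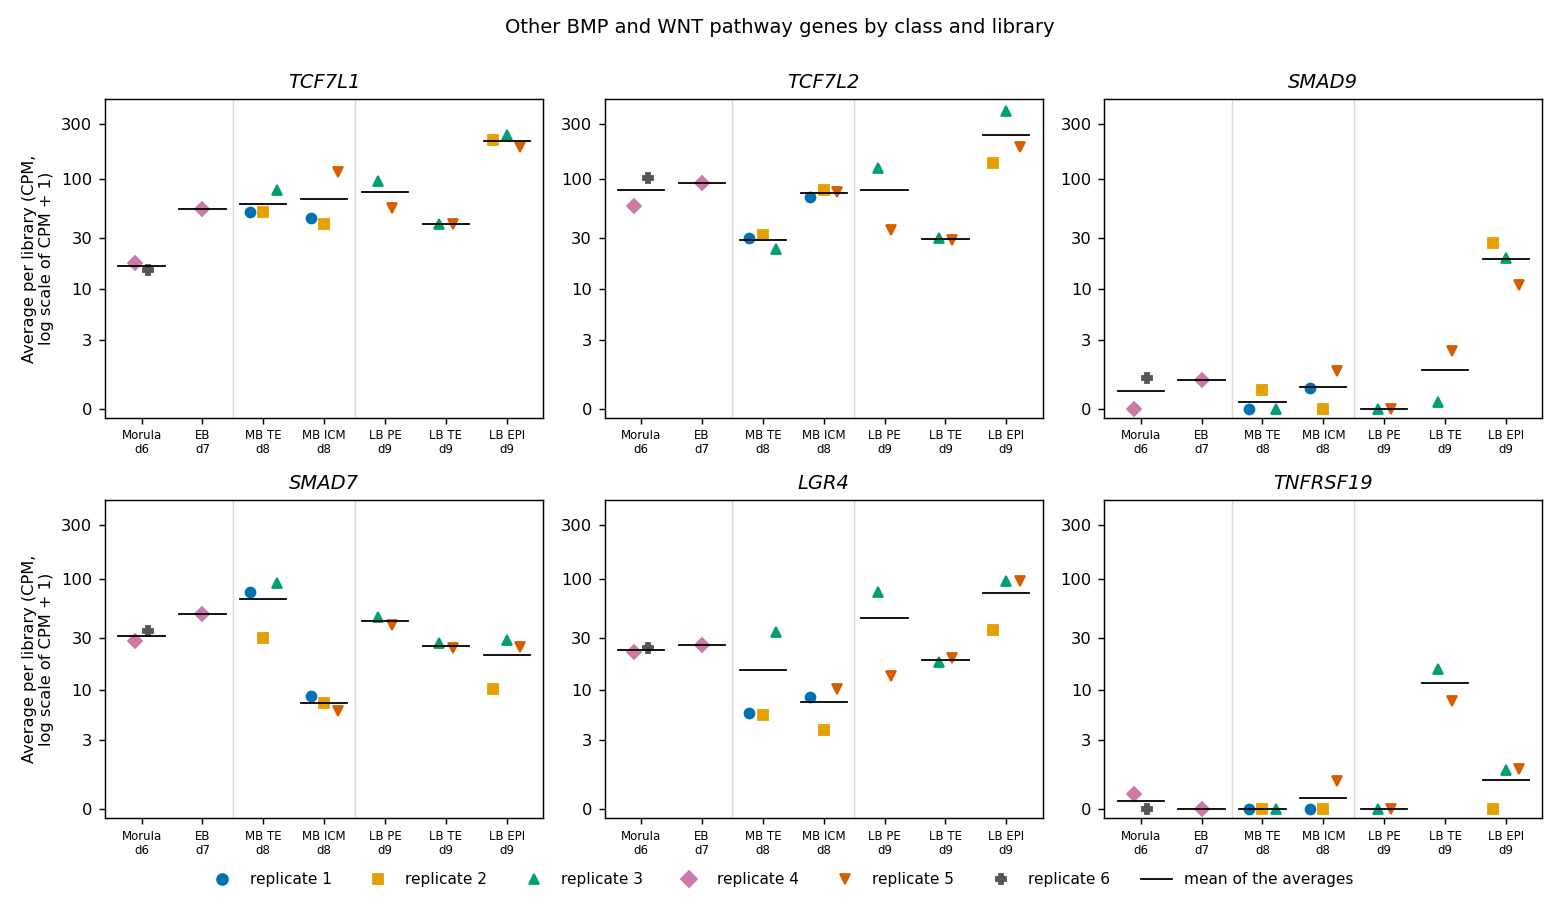
Average level of 6 other BMP and WNT pathway genes per class, drawn as for the 10 genes, in CPM on a log scale of CPM + 1. TCF7L1, TCF7L2, SMAD9 and LGR4 have their highest class mean in LB EPI, SMAD7 in MB TE and TNFRSF19 in LB TE.

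Across the 16 averages, the genes whose log2(CPM + 10) profile was most like that of each member were found by Pearson's r, as a description only, since the averages share libraries and classes. For RSPO3 these were AK3 (r = 0.95), RFC1 (0.91) and CTSC (0.89), and for ID1 they included FOXP4 (0.94) and TMEM206 (0.92). For BMP4 they were CLIC6 (0.89), MYNN (0.89) and CDK2AP1 (0.88), and for ID2 ANXA4, ATOX1 and FTL (0.75 to 0.79). For LEF1 they were CACNA1F, PHYHIPL and the zona pellucida gene ZP4 (0.96 each), for FST DAB1, FAM107B and DAPL1 (0.91 to 0.93), and for ID3 FRZB, ZC2HC1A and CD58 (0.90 to 0.95). All profiles include the Morula average of replicate 6, in which LEF1, FST and ID3 rested on the cells that stood apart. For AXIN2 they were CDK12, UTP25 and SCRN2 (0.76 to 0.79), for BMP2 they included CARNMT1 (0.80) and FKBP11 (0.78), and for BMP7 DTX3L, RAD51D and C25H16orf71 (0.84 to 0.85). Among pairs of members, r was highest for ID3 and LEF1 (0.70), FST and LEF1 (0.69) and ID1 and BMP4 (0.66), and lowest for ID2 and BMP4 (-0.64). Among the 45 LB EPI cells, Spearman's rho of ID1 and BMP4 was 0.07.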

How the data were processed

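The authors deposited natural log values of 18825 genes in 286 cells, ln(1 + value per 10000). Per the submitters' processing notes, Trim Galore, HISAT2, featureCounts and Seurat were used with the build ARS-UCD1.2. The notes give no versions, settings or cell filters, and no source used here says whether molecular identifiers were counted. Per the labels' protocols, polyadenylated RNA was reverse transcribed from an oligo(dT) primer, amplified by PCR and pooled after barcoding. With the log undone, each cell summed to 10000 and 100% of its values were whole multiples of a per-cell step, within 0.1 reads, from which read totals were recovered. Cells were tied to libraries by the code in their names, and the 6 wildtype libraries were used. The cell table lists 288 cells, of which 2 had no values.

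CPM values were averaged over cells of 1 library and class (at least 3), transformed as log2(CPM + 10), and kept if 1 average reached 10 CPM, which all 10 members did. ID2 reached it in 16 of the 16 averages, RSPO3 in 8, ID1 and BMP4 in 7, AXIN2 in 6, ID3 and FST in 5, BMP2 in 2, and BMP7 and LEF1 in 1. A single fit in limma 3.58.1 (R 4.3.3, empirical Bayes with trend and robust options, statmod 1.5.0) covered all 7 classes and 12540 genes, with the library as random replicate block (consensus correlation 0.18), since most libraries hold more than 1 class. Benjamini-Hochberg adjustment ran over all genes tested, and genes were called at an adjusted p under 0.05. Shares, levels and figures were computed in Python 3.11.15 with pandas 2.3.3, numpy 2.4.6 and scipy 1.17.1. The scripts were tested on simulated data. Marker lists covered epiblast, trophectoderm, hypoblast, cumulus and granulosa, sperm, fibroblast and blood.

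The members, lists and tests were chosen with earlier results of these data known. Named besides the members are up to 6 called genes of the pathway lists per comparison with the smallest adjusted p, those called higher in LB TE than in LB EPI, and for each member the 3 genes with the most similar profile. Of the similar genes, 1 each for ID1 and BMP2 is not reported here. Alternatives changed the pseudocount, filter, cell minimum, replicate block, test (voom on recovered reads), averaging, scaling, depth and libraries. No sequences are shown, since no genome of the authors' build was used here.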

Additional observations from a re-analysis of the deposited data

Results flagged for a closer look

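For ID2 and AXIN2, the difference between trophectoderm and inner cells was above 0 inside both libraries that hold the day 9 classes and below 0 inside both that hold the day 8 classes. No library holds averages for both contrasts. For ID2 it was 1.26 and 0.93 inside replicates 3 and 5 on day 9 (LB TE against LB EPI), and -0.27 and -0.46 inside replicates 1 and 2 on day 8 (MB TE against MB ICM). The difference of the 2 contrasts was 1.56 on the log2 scale (SE 0.55, adjusted p = 0.2795, limma). For AXIN2 it was 0.61 and 0.60 on day 9 and -0.74 and -0.35 on day 8, with a difference of contrasts of 0.38 (SE 0.54, adjusted p = 0.902). Fitted over all averages, the AXIN2 contrast was above 0 on both days, at 0.49 on day 9 and 0.10 on day 8. Neither passed the test, and 0 of the 10 members did, against 0.367% of all genes tested called. At an unadjusted p under 0.05 there were 3 of the 10 members, against 1204 of the 12540 genes tested.

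TCF7L1 did pass the test. The difference of its contrasts was -2.20 (SE 0.48, adjusted p = 0.0472), from -2.24 on day 9 and -0.04 on day 8. The call was lost in 10 of 15 alternatives, among them without replicate 1 (adjusted p = 0.208), 2 (0.221), 3 (0.523), 4 (0.0662) or 6 (0.0538).

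A library with too few LB PE cells to enter an average also held RSPO3. Replicate 2 had 2 such cells, and the first, with 177675 reads, was at 720.4 CPM of RSPO3 from 128 reads, above every LB EPI and LB TE cell. The second had 9661 reads and none of RSPO3.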

How the results depend on the processing

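Of the log2 changes of single genes under the alternatives, 697 kept their direction and side of the threshold, 118 lost the call, 21 gained it and 1 turned, AXIN2 in the difference of contrasts (-0.059 without replicate 1, and up to 0.75 without replicate 3). The calls of RSPO3 in MB TE against MB ICM and in LB PE against LB TE and LB EPI held under all 15 alternatives, and the losses of other calls stand beside them above. Numbers of genes called moved by over 1.5 times as follows, and the cause was not tested. With at least 5 cells per average they were 818 for MB TE against MB ICM, 15 for LB TE against MB TE, 5 for EB against Morula and 13 for the difference of contrasts. With cells of at least 20000 reads they were 137 for LB PE against MB ICM, 42 for LB TE against MB TE and 113 for the difference of contrasts. Voom gave 3165 for LB TE against LB EPI, 402 for LB PE against LB EPI, 1105 for LB EPI against MB ICM, 2 for LB PE against MB ICM, 64 for LB TE against MB TE, 23 for EB against Morula and 122 for the difference of contrasts. The mean over cells of log2 values gave 1246 for LB PE against LB TE, 985 for LB EPI against MB ICM, 53 for LB PE against MB ICM, 86 for LB TE against MB TE, 16 for EB against Morula and 155 for the difference of contrasts. Without a filter they were 428 for LB PE against LB EPI, 419 for LB EPI against MB ICM, 39 for LB PE against MB ICM, 81 for EB against Morula and 10 for the difference of contrasts. A pseudocount of 1 CPM gave 13 for LB PE against MB ICM, 4 for LB TE against MB TE, 2 for EB against Morula and 11 for the difference of contrasts.

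The library is the replicate block of the main fit, since averages of 1 library are paired by it. Without the replicate block, 387 genes were called for LB PE against LB EPI (676 with it), 439 for LB PE against LB TE (734), 36 for LB PE against MB ICM (88), 11 for LB TE against MB TE (24), 4 for EB against Morula (10) and 13 for the difference of contrasts (46). Of the members' calls it changed ID1 in LB PE against LB EPI and BMP4 in LB TE against LB EPI and LB EPI against MB ICM, and no other.

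Leaving out 1 replicate at a time gave 635 to 1260 genes called for MB TE against MB ICM, 851 to 1875 for LB TE against LB EPI, 260 to 617 for LB PE against LB EPI, 169 to 705 for LB PE against LB TE, 315 to 604 for LB EPI against MB ICM, 2 to 269 for LB PE against MB ICM, 3 to 27 for LB TE against MB TE, 1 to 9 for EB against Morula and 0 to 49 for the difference of contrasts. Without replicate 4 there is no EB average and no value. Where it left a class with 1 average, that average was assumed to vary like the others, as for EB throughout. This was so for Morula without replicate 4 or 6, and for LB PE and LB TE without replicate 3 or 5. Calls of LB PE or LB TE that held or were lost without replicate 3 or 5 rest on that assumption. Calls of ID2, ID3 and FST gained without replicate 4 or 6 are thus not separate from those gained without the Morula cells that stood apart.

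The mean over cells of log2 values moved the median of all genes by between -0.14 (LB PE against LB TE) and 0.11 (MB TE against MB ICM), and voom by between -0.12 (LB EPI against MB ICM) and 0.11 (LB PE against LB TE). With the mean over cells, calls split into 1274 higher and 345 lower for MB TE against MB ICM (749 and 515 in the reported fit), 244 and 750 for LB PE against LB EPI (374 and 302), 219 and 1027 for LB PE against LB TE (309 and 425) and 826 and 159 for LB EPI against MB ICM (413 and 227). With voom they split into 289 and 113 for LB PE against LB EPI and 574 and 531 for LB EPI against MB ICM. Median-of-ratios scaling moved no split by over 10 percentage points. The calls of RSPO3 exceed these shifts. Without the Morula cells that stood apart, an alternative chosen after seeing the data, no count moved beyond 1.5 times. Depth limits what can be said of BMP2, BMP7 and LEF1, and of shares in LB PE, the class with the fewest reads.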
